A study of Mus musculus with 5 samples.

Results

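Granule and IgE receptor genes of mast cells, basophils and eosinophils were examined in mouse bone marrow cells that the labels call dendritic cell progenitors positive for FLT3 and CD11b. The 9 genes, chosen by their platform gene symbol, were Cpa3, Mcpt8, Hdc, Prg2, Epx, Ear1, Ear2, Fcer1a and Ms4a2. Of these, 7 had a probe set, 10 probe sets in all, out of 8251 named genes and 12422 probe sets; no probe set carried the symbol Ear1 or Ear2. The study holds 5 samples in 1 group with 1 array each, numbered 1 to 5, and the labels give no strain, age, treatment, time or culture for them. The labels also do not say whether the samples came from separate animals, so the spread between them may be technical. Signals are array intensities scaled to a common array median of 103.4, given as mean ± SD over n = 5 samples.

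Mast cells and basophils carry the high-affinity IgE receptor, built from an alpha chain that binds IgE (Fcer1a), a beta chain that amplifies the signal (Ms4a2) and a gamma chain shared with other Fc receptors (Fcer1g). When antigen crosslinks the bound IgE, these cells release granules that hold histamine, proteases and proteoglycan. Eosinophil granules instead hold major basic protein, eosinophil peroxidase and ribonucleases. All 3 cell types arise from bone marrow progenitors, and a set of their granule genes is already transcribed at the progenitor stage.

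Of the measured members, 4 of the 5 genes for granule proteins or histamine synthesis lay above the array median, and both IgE-specific receptor chain genes lay below it. Cpa3, Mcpt8, Hdc and Prg2 were above it on all 5 arrays by their brighter or only probe set, which is 4 of 7 measured members against 44.5% of all named genes; Mcpt8 and Prg2 were not by their dimmer probe sets, which left 2 of 7 against 34.6% of all named genes by their dimmest. Fcer1a and Ms4a2 were below it on all 5 arrays, which is 2 of 7 against 26.7% of all named genes, and Epx was above it on 1 array. With so few members these shares are a description. Lying above or below the median is a rank among the probe sets of an array, not a call of expression. In a bulk sample, fewer cells of a type and less RNA per cell cannot be told apart.

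The arrays were of unlike scale before they were brought to the common median: the deposited median was 392 in sample 1 and 66.5 to 81.2 in the others. Both genes of the sort were above the median on all 5 arrays, with Flt3 at 745 ± 463 and Itgam, which encodes CD11b, at 477 ± 215. Neutrophil marker genes were above it in 10 of 11 cases, erythroid and megakaryocyte genes in 1 of 8 and lymphoid genes in 0 of 7. The share of all named genes was 44.5%. For the actin control, signal at the 3' end over that at the 5' end ran from 1.08 in sample 1 to 5.20 in sample 4. For the Gapdh control it ran from 0.896 in sample 1 to 4.52 in sample 3. The 125 brightest probe sets lay a median of 0.64 log2 units lower in sample 1 than the mean of the other samples.

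Cpa3 encodes carboxypeptidase A3, a metalloprotease stored in mast cell granules and transcribed early in the mast cell and basophil lineages. Its brighter probe set had signals of 593, 2132, 1500 and 1055 in samples 1 to 4 and 909 in sample 5, a mean of 1238 ± 597. Sample 1 was lowest and sample 2 highest, 3.60-fold apart. Ranked within each array, the probe set lay at the 86.3rd percentile in sample 1 and between the 91.1st and 96.4th percentile in the other samples. The dimmer probe set had 161, 549, 318, 421 and 588, a mean of 407 ± 174. It too was above the median on every array and lowest in sample 1, while its highest sample was sample 5. The order of samples 2 to 5 therefore depended on the probe set.

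Mcpt8 encodes a granule serine protease that marks mouse basophils and their progenitors. The brighter of its 2 probe sets had signals of 384, 623, 657, 504 and 595 in samples 1 to 5, a mean of 553 ± 110. These values spanned 1.71-fold, and sample 1 was again lowest. The dimmer probe set had 28.4, 78.7, 30.0, 134 and 22.7, above the median on 1 array only. The statement that Mcpt8 lay above the median thus rests on its brighter probe set.

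Hdc encodes histidine decarboxylase, the enzyme that makes histamine. Its probe set had signals of 419, 830, 568, 848 and 605 in samples 1 to 5, a mean of 654 ± 183. Sample 1 was lowest, and samples 2 and 4 were highest and differed by little from each other. Cpa3, Mcpt8 and Hdc thus shared their lowest sample. The share of all named genes that were lowest in sample 1 was not counted. On the log2 scale Cpa3 lay at -1.16, Mcpt8 at -0.62 and Hdc at -0.74 relative to the mean of the other 4 samples. Probe sets within 0.25 log2 units of these genes' levels had medians of -0.26, -0.07 and -0.12 in sample 1, a comparison chosen after the values were seen. The lower quartile of those probe sets was -0.80 at the level of Cpa3, -0.49 at that of Mcpt8 and -0.60 at that of Hdc. All 3 genes, picked for being lowest in sample 1, lay below it. The brighter probe set of Prg2 lay at 0.19 in sample 1, against a median of 0.004 for probe sets at its level. After quantile normalization, which gives every array the same distribution, sample 1 remained lowest for Cpa3 at 617, Mcpt8 at 393 and Hdc at 436. Summed signals of the 11 neutrophil marker genes were also lowest in sample 1, at 73848 against 133810 to 273778 in the others. In samples 2 to 5, S100a8, S100a9 and Ngp carried most of that sum. Gene by gene, 6 of the 11 were lowest in sample 2 and 4 in sample 1. The protease genes Elane and Prtn3 were highest in sample 1. The actin ratio was lowest in sample 1 as well. So was the Gapdh ratio, at 0.896, but sample 2 was close to it at 1.06, with 2.01 to 4.52 in the others. The part of these measures in the result was not tested.

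**Figure D1:**
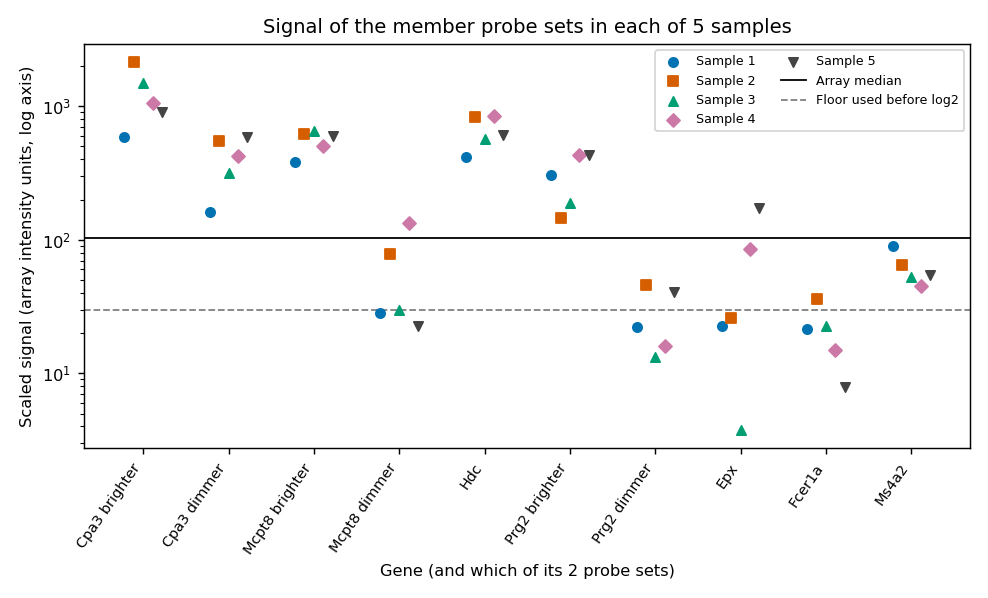
Scaled signal (log axis) of the 10 member probe sets, 1 point per sample, with the common array median of 103.4 as a solid line and the floor of 30.0 used before log2 as a dashed line. All points of Cpa3, of Hdc and of the brighter probe sets of Mcpt8 and Prg2 lie above the solid line, and all points of Fcer1a and Ms4a2 lie below it; signals of different probe sets are not on 1 scale of abundance.

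Prg2 encodes major basic protein, the main component of the eosinophil granule core, which basophils and mast cell lines also make. Its brighter probe set had signals of 307, 146, 188, 435 and 435 in samples 1 to 5, a mean of 302 ± 135. Samples 4 and 5 were highest and sample 2 lowest, 2.99-fold apart, so the order differed from that of Cpa3, whose brighter probe set was highest in sample 2. The dimmer probe set had 22.3, 45.7, 13.2, 16.0 and 40.3 and was below the median on every array. The 2 probe sets of Prg2 therefore disagreed on the side of the median.

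Epx encodes eosinophil peroxidase, which makes hypohalous acids in eosinophil granules. Its signals were 22.6, 25.9, 3.77, 84.9 and 173 in samples 1 to 5, a mean of 62.0 ± 69.1. Sample 5 alone was above the median, sample 4 came next, and samples 1 to 3 were under the floor of 30.0, below which values have no order. By the brighter probe set of Prg2, samples 4 and 5 were thus the highest for both Prg2 and Epx. The dimmer probe set of Prg2 was highest in sample 2, at 45.7, and under the floor in sample 4, at 16.0. Of the other eosinophil genes, Prg3, a homologue of Prg2, had 74.9, 39.1, 7.80, 97.3 and 292, and Ccr3, the eotaxin receptor, had 22.9, 55.6, 60.8, 10.4 and 198. Both were above the median on 1 array, sample 5. Alox15, a lipoxygenase of eosinophils and macrophages, was above it on 2 arrays at 78.1 ± 53.4 and was named after its values were seen. Its signals were 43.3, 145, 125, 50.7 and 25.8 in samples 1 to 5, so it was lowest in sample 5. No gene of this list of 3 measured genes was above the median on all 5 arrays, against 44.5% of all named genes.

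The eosinophil-associated ribonucleases Ear1 and Ear2 were not measured under their own symbols. Of the same ribonuclease family, Ear14 had signals of 17.3, 19.6, 6.45, 63.6 and 42.5 in samples 1 to 5, and Rnase2b 49.7, 37.0, 4.84, 48.7 and 8.27. Both were below the median on every array; they are not members and were looked up after Ear1 and Ear2 were not found. Genes of this family are close in sequence, so a probe set can bind transcripts of several of them.

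Fcer1a had signals of 21.4, 36.3, 22.5, 15.1 and 7.89 in samples 1 to 5, a mean of 20.6 ± 10.5. Only sample 2 exceeded the floor of 30.0, and the probe set ranked between the 6.79th and 29.1st percentile of its arrays. Ms4a2 had signals of 89.1, 64.7, 52.7, 44.8 and 54.1, a mean of 61.1 ± 17.2. Its highest sample, sample 1, lay at the 46.6th percentile, still under the median. Neither IgE-specific chain gene was above the median in any sample, and sample 1, the lowest for Cpa3, Mcpt8 and Hdc, was the highest for Ms4a2. The shared gamma chain gene Fcer1g was above it on all 5 arrays by its brighter probe set, at 412 ± 159, and on none by its other probe set, at 31.4 ± 19.4.

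**Figure D2:**
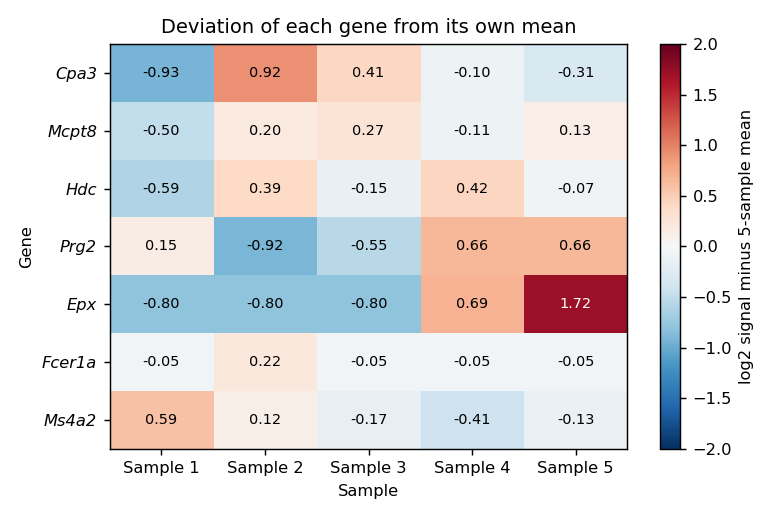
Deviation of the log2 signal of each measured member (rows, brighter probe set, values under 30.0 raised to 30.0) from its own mean over 5 samples (columns), with colour and number giving log2 units. Cpa3, Mcpt8 and Hdc are lowest in sample 1, at -0.93, -0.50 and -0.59, while Prg2 and Epx are highest in samples 4 and 5.

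None of these differences between samples passed a test of variance. Limma set the variance of each of 5814 probe sets whose mean exceeded the median against others at the same level, and called 0 of them (0% of all tested), with 290 at an unadjusted p under 0.05 and 294 in a non-robust fit, which also called 0. Of the members, 5 probe sets were bright enough to enter. The SD of log2 signal was 0.70 and 0.76 for the 2 probe sets of Cpa3 (limma adjusted p = 0.943 and 0.937) and 0.71 for Prg2 (limma adjusted p = 0.943). These SDs lay at the 79.2nd, 83.0th and 80.3rd percentile of all tested probe sets. Mcpt8, with an SD of 0.31, and Hdc, with 0.42, lay at the 20.8th and 41.0th percentile (limma adjusted p = 0.995 for both). With 1 array per sample, the fit ranks probe sets against each other and cannot show that samples are alike.

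**Figure D3:**
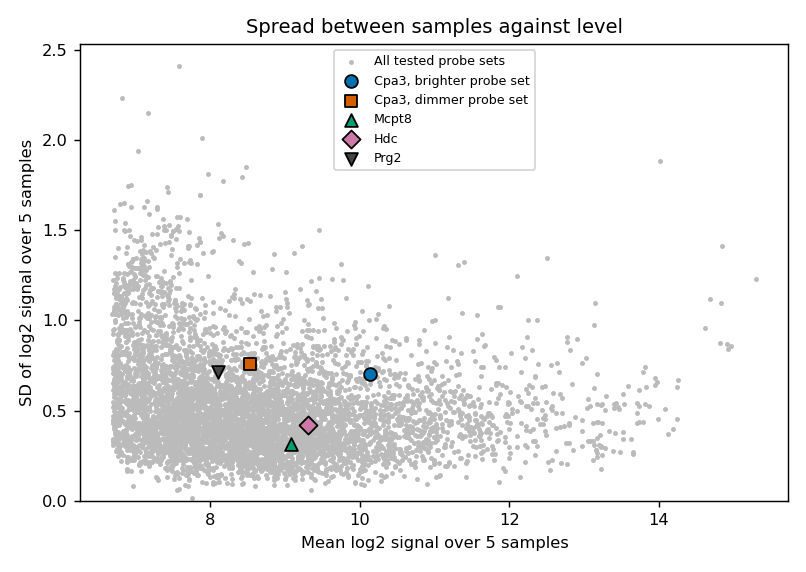
SD of log2 signal over 5 samples against mean log2 signal, 1 grey point for each of 5814 tested probe sets and large symbols for the 5 member probe sets tested. Cpa3 and Prg2 lie in the upper part of the cloud, at SDs of 0.70, 0.76 and 0.71, and Mcpt8 and Hdc within its lower part, at 0.31 and 0.42.

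The genes whose pattern over 5 samples came closest to each member were found by the mean absolute difference of log2 signals centred on each gene's mean. For Cpa3 they were Specc1, Glmp and the connexin gene Gja1, at 0.09, 0.11 and 0.12 log2 units among 3249 genes. Dgat1, which makes triglyceride, Slc6a12, a transporter gene, and the immunoglobulin segment Igkv8-19 came closest to Prg2, at 0.09, 0.12 and 0.13 among 3202. Mcpt8 was followed most closely by Timm8a1, Fkbp3 and Rasal1, at 0.06, 0.06 and 0.07 among 4451, and Hdc by the small Maf factor gene Mafg, Sec62 and Hmgn1, at 0.04, 0.06 and 0.06 among 4268. The members were not each other's closest genes. Mcpt8 lay 0.35 from Cpa3, with 12.2% of the 3249 genes nearer, and Hdc 0.44, with 23.3% nearer. Prg2 lay 1.12 from Cpa3, with 94.4% nearer. Counted from the other gene of each pair, 30.6% of 4451 genes were nearer to Mcpt8 than Cpa3 was. For Hdc it was 50.5% of 4268 and for Prg2 94.9% of 3202. All of these patterns share the same 5 arrays.

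Among other granule proteases, 1 of 8 measured genes was above the median on all 5 arrays, against 44.5% of all named genes. That gene was Ctsg, cathepsin G, which neutrophil precursors also make, with signals of 8592, 2678, 1643, 2396 and 2782 in samples 1 to 5. It was highest in sample 1, the lowest sample of Cpa3. Proteases that mark mature connective tissue or mucosal mast cells had few values above the median. The chymase gene Cma1 was above it on 4 arrays at 124 ± 35.6 and Mcpt1 on 2 arrays at 105 ± 85.9. The other probe sets of Cma1 were above it on 1 array, at 34.8 ± 41.3, and on 0 arrays, at 25.2 ± 14.2, and that of Mcpt1 on 0 arrays, at 45.9 ± 26.5. Mcpt2, Mcpt4 and the tryptase gene Tpsab1 were above it on 0 arrays and the tryptase gene Tpsb2 on 2, or on 3 by its other probe set; these 4 were named after their values were seen.

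Of the genes for amines and the granule matrix, 1 of 5 was above the median on all 5 arrays, against 44.5% of all named genes. Srgn, the core protein of the granule proteoglycan that binds histamine and proteases, had 1181, 1484, 1870, 1498 and 987. Tph1, which makes serotonin in mast cells, was below the median on all 5 arrays at 19.9 ± 13.3, and Ddc, a decarboxylase of amine synthesis, was above it on 2 at 81.5 ± 42.5.

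Signalling genes that act below the IgE receptor were above the median on all 5 arrays in 9 of 13 cases by their brightest probe sets, against 44.5% of all named genes, and in 3 of 13 by their dimmest, against 34.6%. Besides Fcer1g these were the kinase genes Syk, at 1598 ± 310, and Btk, at 593 ± 73.3, the adaptor genes Lat, at 226 ± 39.2, Lat2, at 793 ± 413, and Lcp2, at 930 ± 200, the phospholipase gene Plcg2, at 843 ± 184, the exchange factor gene Vav1, at 442 ± 204, and the inhibitory phosphatase gene Inpp5d, at 651 ± 26.6. The dimmest probe sets of Fcer1g, Syk and Btk were above the median on 0 arrays, that of Vav1 on 1 and those of Lat2 and Inpp5d on 4. Most of these proteins also act in other myeloid cells. Lat2, an adaptor of mast cells and B cells, had 399, 1460, 832, 766 and 507 and was, like the brighter probe set of Cpa3, lowest in sample 1 and highest in sample 2. Its other probe set was also highest in sample 2 but lowest in sample 5, at 93.0 against 121 in sample 1. The 4 genes not above the median throughout were Fyn, Gab2, Plcg1 and Grap2, named after their values were seen.

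Eicosanoid synthesis genes were above the median on all 5 arrays in 3 of 4 cases, against 44.5% of all named genes. By the dimmest probe sets it was 2, without Ltc4s, against 34.6%. Ltc4s, leukotriene C4 synthase of mast cells, basophils and eosinophils, had 228 ± 114, Lta4h, which makes leukotriene B4, 7055 ± 3224, and the phospholipase gene Pla2g4a 256 ± 109. The prostaglandin synthase gene Ptgs2 was below the median on every array, named after its values were seen.

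Growth factor receptor genes were above it in 5 of 7 cases, against 44.5% of all named genes. By the dimmest probe sets it was 4, without Csf2rb2, against 34.6%. Kit, the stem cell factor receptor that mast cells keep, had 145, 204, 199, 147 and 222 in samples 1 to 5. Il3ra, the interleukin 3 receptor chain of mast cells and basophils, had 236, 222, 147, 254 and 231. Both ran within a narrow range, Il3ra apart from its low sample 3. The beta chain genes Csf2rb, at 464 ± 337, and Csf2rb2, at 424 ± 109, and the GM-CSF receptor chain Csf2ra, at 521 ± 171, completed the 5. Il5ra, the interleukin 5 receptor chain of eosinophils, named after its values were seen, was below the median on every array at 20.4 ± 31.3. Its signals were 16.0, 0.853, 75.4, 2.02 and 7.76 in samples 1 to 5, highest in sample 3.

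Cytokine genes were above the median on all 5 arrays in 0 of 8 cases and on none in 6, against 44.5% and 26.7% of all named genes. Il3, a growth factor of mast cells and basophils, had 28.5 ± 19.4, and Il4, a cytokine that basophils and mast cells release, had 53.1 ± 42.6.

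Of the transcription factors, 10 of 17 were above the median on all 5 arrays, against 44.5% of all named genes. Gata2, a factor of the mast cell and basophil lineages, was above it on 4 arrays with 127, 391, 89.3, 267 and 216, and Gata1, which mast cells and eosinophils need, on 1 with 83.4, 85.5, 86.5, 122 and 12.3. Gata1 thus lay close to the median or under it in every sample, and Gata2 only in samples 1 and 3. For each gene the other probe set was above the median on fewer or equally few arrays. The 10 were Cebpa at 1684 ± 486, Cebpb at 2215 ± 973, Runx1 at 209 ± 108, Spi1 at 910.5 ± 386, Lmo2 at 724 ± 212, Gfi1 at 832 ± 327, Id1 at 304 ± 90.6, Id2 at 3977 ± 1976, Stat5a at 490.4 ± 126 and Bhlhe40 at 325 ± 76.5. Runx1, a regulator of blood progenitors and basophils, was lowest in sample 1 at 131 and highest in sample 2 at 399, as the brighter probe set of Cpa3 was. So were Id2, at 1779 and 6015, and the IgE signalling gene Fyn, at 34.8 and 255. The share of all named genes with these lowest and highest samples was not counted. Lat2 shared them too by its brighter probe set, and all of these matches are a description. Over all 8 lists, 29 of 65 measured genes were above the median on all 5 arrays, 44.6% against the 44.5% of all named genes. By the dimmest probe sets it was 21 of 65, against 34.6% of all named genes.

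**Figure D4:**
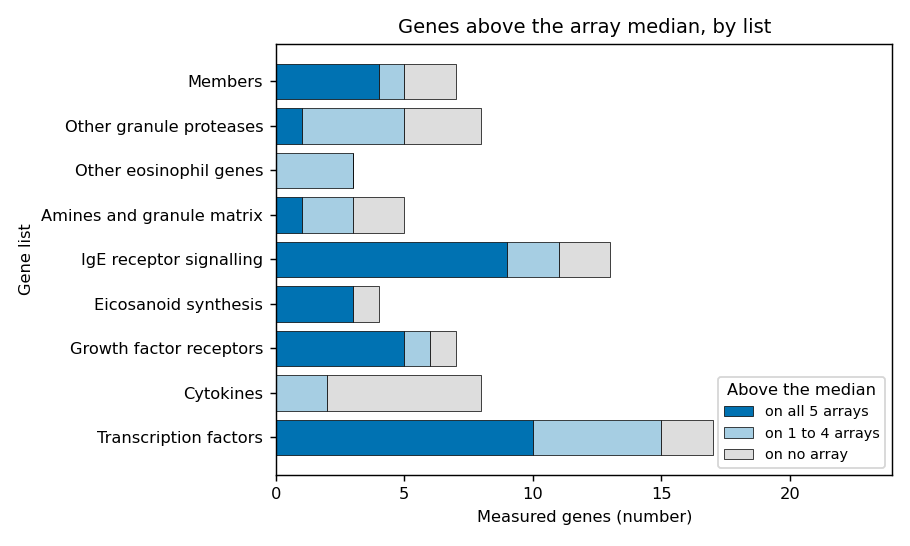
Number of measured genes (horizontal axis) in each list that were above the array median on all 5 arrays, on 1 to 4, or on none, by the brightest probe set of each gene. IgE receptor signalling stands at 9 of 13 (3 of 13 by the dimmest probe sets) and growth factor receptors at 5 of 7 (4 of 7). Other granule proteases stand at 1 of 8 and cytokines at 0 of 8. The share of all named genes is 44.5% (34.6% by the dimmest probe sets), and differences between lists were not tested.

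Promoter sequences of 3 granule genes above the median and of both IgE-specific receptor genes are shown because these genes carry the contrast. Each is the 250 bases before a RefSeq start site (build GRCm38.p6), 5′ to 3′, and capitals mark GATA motifs, which were GATAA or GATAG after an A or a T, on either strand.
Cpa3, chr3:20242182-20242431, minus strand: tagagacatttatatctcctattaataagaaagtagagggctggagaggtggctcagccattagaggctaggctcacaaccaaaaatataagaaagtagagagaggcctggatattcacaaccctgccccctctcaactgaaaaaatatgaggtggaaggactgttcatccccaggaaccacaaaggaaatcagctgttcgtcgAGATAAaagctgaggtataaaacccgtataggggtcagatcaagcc
Mcpt8, chr14:56085198-56085447, minus strand: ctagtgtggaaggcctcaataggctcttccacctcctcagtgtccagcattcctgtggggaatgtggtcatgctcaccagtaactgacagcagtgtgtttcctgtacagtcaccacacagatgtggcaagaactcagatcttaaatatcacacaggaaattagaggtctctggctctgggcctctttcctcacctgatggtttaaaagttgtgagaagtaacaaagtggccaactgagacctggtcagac
Hdc, chr2:126618679-126618928, minus strand: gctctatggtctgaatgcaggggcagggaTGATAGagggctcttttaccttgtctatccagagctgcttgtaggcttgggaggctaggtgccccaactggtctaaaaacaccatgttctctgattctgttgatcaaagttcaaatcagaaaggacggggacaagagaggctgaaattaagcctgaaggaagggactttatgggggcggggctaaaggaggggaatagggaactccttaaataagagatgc
Fcer1a, chr1:173227230-173227479, minus strand: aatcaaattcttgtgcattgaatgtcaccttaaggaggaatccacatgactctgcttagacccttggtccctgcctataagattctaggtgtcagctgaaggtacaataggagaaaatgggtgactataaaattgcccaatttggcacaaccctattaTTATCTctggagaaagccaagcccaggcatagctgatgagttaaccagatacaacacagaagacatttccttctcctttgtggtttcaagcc
Ms4a2, chr19:11623720-11623969, minus strand: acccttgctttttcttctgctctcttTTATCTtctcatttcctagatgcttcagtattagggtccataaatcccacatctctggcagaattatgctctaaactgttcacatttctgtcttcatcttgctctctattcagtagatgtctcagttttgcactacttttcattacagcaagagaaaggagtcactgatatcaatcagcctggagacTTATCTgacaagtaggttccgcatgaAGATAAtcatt
A GATA motif was found for 4 of the 8 members with a promoter in the RefSeq table, against 26.5% of all 32851 promoters of that length; Prg2 had none in the table. It began 46 bases before the start of Cpa3, 92 before that of Fcer1a, 221 before that of Hdc, and 224, 37 and 11 before that of Ms4a2. The motif thus occurred on both sides of the contrast. TGTGGT on either strand, the letters of a RUNX motif, occurred in 3 of the 8, which were Cpa3, Mcpt8 and Fcer1a, against 14.0% of all promoters. TTCNNNGAA, the letters of a STAT motif, occurred in 0 of the 8 against 7.02%. The windows of Mcpt8 and Hdc lie inside the gene as RefSeq outlines it, and the other windows shown overlap theirs in part. A match describes these letters only.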

How the data were processed

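Total RNA of 5 samples was measured on 1-colour probe-set arrays, 1 per sample. The deposited values were linear intensity values of 12488 probe sets; the software and scaling behind them are not given in the sources used here. Without the 66 control probe sets, every array was rescaled linearly to a median of 103.4. Values under the 25th percentile, 30.0, were raised to it before log2. Platform annotation named 10833 probe sets with 1 gene symbol; 396 had several and were not used. Where a gene had several probe sets, the brightest by mean log2 signal represented it. Limma 3.58.1 (R 4.3.3) tested variance over all probe sets whose mean exceeded the median, with Benjamini-Hochberg adjustment and a threshold of 0.05. The procedure was tested on simulated data in which all unchanged probe sets shared 1 SD. Those of the real arrays do not, so what the test misses in them is not known. Named were all members, list genes above the median on all 5 arrays, the first 2 measured genes of each list and the 3 genes nearest to each member, among genes with an SD of at least the member's divided by 2. Members and lists were chosen with earlier results of these data known. Without replicate arrays, the number of arrays limits the precision. Alternatives were quantile normalization, deposited values, other limits, floors and probe sets, and leaving out each sample.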

Additional observations from a re-analysis of the deposited data

Results flagged for a closer look

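Of the 72 measured members and pathway genes, 9 (12.5%) had a sample at 1 end that lay apart from the others by Dixon's test at 95%, which chance alone flags in about 1 of 20 groups and which, on these floored values, flagged 14.2% of all named genes. In Fcer1a, Tph1, Il6, Il5ra and Grap2 the ratio of gap to range was 1 because 4 of 5 values were at the floor. The value over it was 36.3 for Fcer1a, 35.7 for Tph1 and 74.7 for Il6, all in sample 2, 75.4 for Il5ra in sample 3 and 43.0 for Grap2 in sample 5. For Ndst2 the ratio was 0.880, with sample 5 high at 95.7, and for Il13 it was 0.793, with sample 1 at 30.5 and the others at or just over the floor. For Il3ra the ratio was 0.757, with sample 3 low at 147. For Gata1 it was 0.729, with sample 5 low at 12.3.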

How the results depend on the processing

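The count of 4 members above the median was the same with the limit at the 40th percentile, with 3 of 5 arrays sufficing and without any 1 sample. These settings loosen the rule, so they could add members but lose none. The count was 3 with the limit at the 75th percentile. It became 2 where the dimmer probe set represented each gene: Prg2 then lay at -1.58 and Mcpt8 at -1.07 log2 units from the array median, against 1.41 and 2.39, and the median over the 7 measured members turned from 1.41 to -1.09. Without each sample in turn that median ran from 1.25 to 1.64. Cpa3 moved to 1.84 by its dimmer probe set, against 3.45, and Fcer1a to -2.38 with the floor at the 10th percentile, against -1.73. The other 52 levels of single members moved by less than 1 SD. Leaving out 1 of 5 samples cannot move a mean by that much, and the choice of probe set changes nothing for genes with 1. Pathway genes above the median numbered 16 of 65 at a limit of the 75th percentile and 21 by the dimmest probe sets, against 29. Of the 8 genes lost by the dimmest probe sets, 6 were IgE signalling genes. Without each sample in turn the number was 29 to 32, and leaving out a sample could not lower it. Limma's variance test called 0 member probe sets under every alternative, those without each sample included. No paired analysis was possible because the samples form 1 group. Values near the floor, as for Fcer1a and Epx, limit what can be said of their order.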
